A study of Arabidopsis thaliana with 12 samples.

Results

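Expansins and xyloglucan endotransglucosylase/hydrolases (XTH) are secreted proteins that act on the plant cell wall, and 55 Arabidopsis genes of these families were followed here, 28 expansin and 27 XTH genes out of 37138 loci. The genes were taken by locus code from a fixed list, and the estimated reads of all transcripts of a locus were summed. The expansin genes comprised 19 α-expansins (EXPA), 5 β-expansins (EXPB), 3 expansin-like A genes (EXLA) and 1 expansin-like B gene (EXLB). RefSeq annotates 68 loci as expansins or XTH by product name when the listed genes are included, and 13 of them were not listed and were not analysed here.

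The tissue was the terminal 0.2 cm of Arabidopsis thaliana roots, profiled by RNA-seq in 4 groups of 3 biological replicates. The groups were Col-0, the wild-type accession, and the scl5 scl21 pat1 triple mutant, which carries mutant alleles of SCL5, SCL21 and PAT1, genes for GRAS-family transcriptional regulators, each on control medium or after 24 h on 0.5 µg/ml of the DNA-breaking drug bleomycin. All 4 groups shared the growth regime, with about 100 seeds per sample sown on nylon mesh over MS agar and moved to the test medium 7 days after sowing, so each sample pooled many seedlings. No time was stated for the control samples. The series title links these regulators with regeneration after wounding, and the design asks how bleomycin changes root tip transcripts and whether that change needs the 3 genes. A whole root tip is a mixture of cell types, and fewer cells of a type cannot be told apart from less RNA per cell in any result given here.

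Expansins loosen the wall without hydrolysing it, most actively in acidic walls, and so let turgor enlarge the cell. XTH enzymes cut xyloglucan, the main hemicellulose of the primary wall in Arabidopsis, and rejoin it to another chain or, in a few members, hydrolyse it. In the root both families are known for cell elongation behind the meristem and for root hair and lateral root outgrowth.

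The libraries held 36.3 to 40.9 M reads, and 3 reads, taken as the detection floor, corresponded to 0.0734 to 0.0827 CPM, reads scaled to library size. SCL5 was at 35.3 to 43.6 CPM in Col-0 and at most 0.0496 CPM in the triple mutant. SCL21 had 0 reads throughout the triple mutant, and PAT1 was at 25.9 to 44.9 CPM in Col-0 and 9.02 to 17.1 CPM in the triple mutant. Triple mutant control 3 lay apart on the second principal component (score 48.7, with the other libraries at 30.9 or below). On the first component Col-0 control 1 lay nearest to the treated libraries (−11.4, with the other controls at −24.8 or below). Marker genes of root hairs, endodermis, xylem, phloem, root cap and the stem cell niche were all detected, and the 10 photosynthesis genes listed as shoot markers summed to 36.6 to 98.4 CPM.

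The 250 bases before the annotated gene start were read for all 55 genes from the RefSeq assembly TAIR10.1, matched by locus code. EXPA7 and EXPA18, α-expansins expressed in root hair cells, were the only listed genes with the root hair element, the sequence known from promoters of root hair genes. It occurred in 207 of 27443 Arabidopsis promoters of this length (0.754%). The motif CTTNNNNNNNAAG, a palindrome known as the binding sequence of SOG1, the DNA damage response factor of plants, occurred in 6 of the 55 promoters, close to its share of all promoters (9.71%). Its carriers were EXPA12, EXPA14, XTH16, XTH23, XTH26 and XTH28. The promoters of EXPA7 and EXPA18 are shown for the root hair element. Those of EXPA14 and XTH28 are shown for the SOG1 motif in genes that rose after bleomycin in Col-0. The carriers EXPA12, XTH16, XTH23 and XTH26 did not pass the test described below in Col-0, though XTH16 and XTH23 did in the triple mutant. In Col-0 EXPA3, EXPA9, EXPA20, XTH9, XTH14, XTH19 and XTH31 passed it without the motif. No link between the motif and the response was tested. Capitals mark the motif, which lies 78 to 62 bases before the start in EXPA7, 40 to 25 in EXPA18, 99 to 87 in EXPA14 and 102 to 90 in XTH28. Each sequence runs 5′ to 3′ on the strand of its gene and ends at the base before the start.
EXPA7 (chr1:4276255-4276504, plus strand): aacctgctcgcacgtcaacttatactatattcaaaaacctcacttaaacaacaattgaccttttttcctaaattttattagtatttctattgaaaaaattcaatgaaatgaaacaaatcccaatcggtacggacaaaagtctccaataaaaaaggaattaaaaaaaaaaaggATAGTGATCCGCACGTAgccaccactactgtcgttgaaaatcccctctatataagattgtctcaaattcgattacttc
EXPA18 (chr1:23331313-23331562, plus strand): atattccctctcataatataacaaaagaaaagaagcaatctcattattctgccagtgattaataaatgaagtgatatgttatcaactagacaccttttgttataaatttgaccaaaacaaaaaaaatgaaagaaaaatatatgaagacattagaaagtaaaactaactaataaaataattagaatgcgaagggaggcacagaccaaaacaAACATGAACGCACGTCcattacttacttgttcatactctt
EXPA14 (chr5:22808391-22808640, plus strand): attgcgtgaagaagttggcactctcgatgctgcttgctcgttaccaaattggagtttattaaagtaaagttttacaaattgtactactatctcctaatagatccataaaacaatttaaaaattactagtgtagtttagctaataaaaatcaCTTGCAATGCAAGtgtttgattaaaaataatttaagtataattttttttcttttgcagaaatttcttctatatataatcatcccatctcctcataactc
XTH28 (chr1:5068678-5068927, minus strand): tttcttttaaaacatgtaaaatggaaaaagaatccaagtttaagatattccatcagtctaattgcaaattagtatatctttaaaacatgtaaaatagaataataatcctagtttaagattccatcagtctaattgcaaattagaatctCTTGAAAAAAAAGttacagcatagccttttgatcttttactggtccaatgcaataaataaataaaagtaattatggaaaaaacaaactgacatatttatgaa
Both strands were searched for the motifs named here. GCCGCC was found in none of the 55 windows and in 1.87% of all promoters, and CACGTG in that of EXPB2 alone (6.49% of all). TTGACC was found in 10 of the 55 windows, above its share of 12.2% of all promoters. TTGACT was found in 4 of the 55, below its share of 19.1%. A match is a description of letters, and no binding was measured.

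Levels between genes are given as TPM, an abundance corrected for transcript length. EXPA9 (AT5G02260) had the highest level among expansins in each of the 12 libraries, with 23.8% to 34.7% of the family's summed TPM, and the 3 highest genes of a library held 48.7% to 54.4%. Averaged over 12 libraries, EXPA9 stood at 395.3 TPM, EXPA17 (AT4G01630), which acts in lateral root emergence, at 156.2 TPM and EXPA14, another gene of that process, at 143.3 TPM. The next places were held by EXPA11 (128.5 TPM) and EXPA7 (113.8 TPM). In Col-0 control EXPA17 was at 138 ± 77.9 TPM (SD, n = 3) and EXPA14 at 84.8 ± 14.0 TPM, so their order was within the spread between replicates. Outside the α-expansins the highest levels were those of EXPB1 at 101.3 TPM and EXLA1 at 20.0 TPM.

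The XTH family was spread more evenly. XTH8 (AT1G11545) or XTH18 (AT4G30280) was highest in each library, with 12.1% to 17.3% of the family's TPM. The 3 highest genes of a library held 34.8% to 39.3%. Mean levels were 192.8 TPM for XTH8, 151 TPM for XTH18, a root-expressed gene, and 132.3 TPM for XTH4 (AT2G06850), and 6 further genes from XTH30 to XTH27 lay between 122.8 and 48.3 TPM.

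Of the 55 genes, 47 passed the filter on low counts, 23 expansins and 24 XTH genes. EXPA2, EXPB2, EXPB4 and XTH25 had 0 reads in all 12 libraries. The others that did not pass were EXPA16 with 8 reads in all, EXPB5 with 3, XTH6 with 36 and XTH7 with 31. The 3 reads of EXPB5 all lay in triple mutant bleomycin 1. No fold change is given for these 8 genes. The filter asks for 0.26 CPM in at least 3 libraries. Among the genes that passed, XTH32 reached that level in 0 of the 6 control libraries and XTH26 and EXPA5 in 2 each, so these 3 passed only through their bleomycin libraries and not on control libraries alone.

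**Figure D1:**
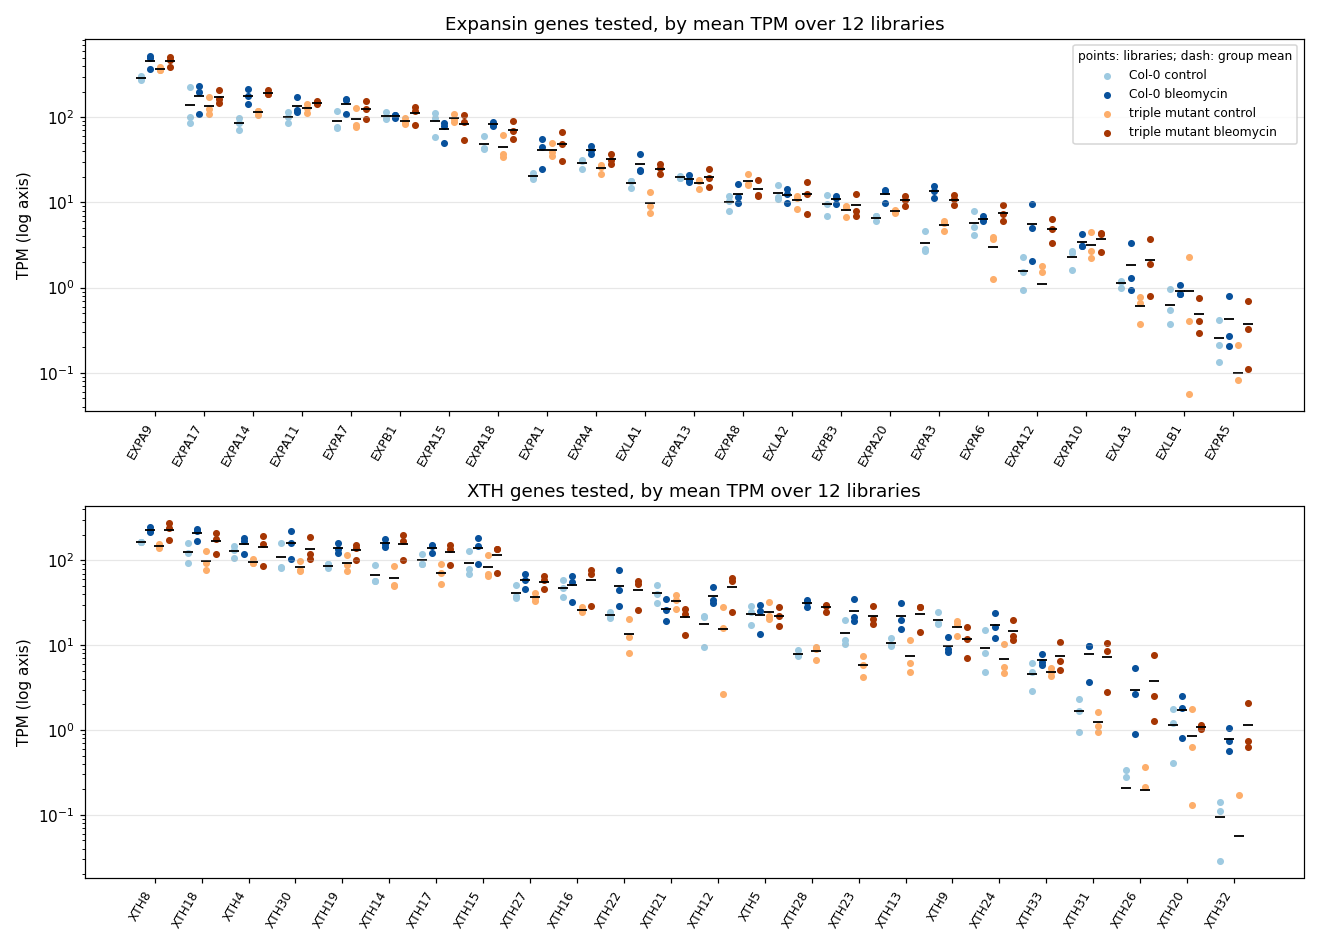
TPM on a log axis for the 23 expansin (top) and 24 XTH genes tested (bottom), ordered by mean TPM over 12 libraries. Points are libraries coloured by group and dashes are group means (n = 3), and libraries at 0 are not drawn. EXPA9 stands apart at 395.3 TPM on average, while the XTH genes decline gradually from 192.8 TPM for XTH8.

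Bleomycin raised 4 of the 23 expansin genes tested in Col-0 and lowered none. They were EXPA3, EXPA9, EXPA14 and EXPA20, all α-expansins. A gene is called changed at an adjusted p under 0.05 in edgeR's quasi-likelihood test over 21561 genes, and 6.75% of all genes tested were called in this comparison, 4.29% higher and 2.46% lower. The median log2 fold change over the expansin genes tested was 0.53, beside 0.01 over all genes tested, and 19 of the 23 had values above 0. EXPA5, which passed the filter only through bleomycin libraries, is in that median and among the 19. Libraries of the 2 groups did not overlap, bleomycin higher, in 9 expansins (15.5% of all genes), and bleomycin lower in 1, EXPA13 (15% of all genes).

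EXPA3 (AT2G37640) stood at 3.43, 2.70 and 4.82 CPM in Col-0 control libraries 1 to 3 and at 13.6, 16.0 and 11.1 CPM in Col-0 bleomycin libraries 1 to 3. Every treated library lay above every control library, and the rise was 3.72-fold (log2 1.89, SE 0.26, edgeR adjusted p = 0.00148). It was the largest rise among the 4 called expansins, from a control level of 3.36 ± 1.05 TPM (SD, n = 3) beside 290 ± 14.1 TPM for EXPA9. EXPA14 (AT5G56320) was at 61.5, 89.8 and 101 CPM in control and at 120, 187 and 182 CPM after bleomycin. The lowest treated library was above the highest control library, and the rise was 1.95-fold (log2 0.96, SE 0.18, edgeR adjusted p = 0.0104).

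EXPA9, the most abundant expansin, was at 288, 353 and 331 CPM in control and at 377, 622 and 492 CPM after bleomycin. The groups did not overlap, though Col-0 bleomycin 1 lay just above the controls, and the rise was 1.54-fold (log2 0.62, SE 0.17, edgeR adjusted p = 0.0468). EXPA20 (AT4G38210) was at 5.70, 5.68 and 6.43 CPM in control and at 11.3, 9.35 and 11.0 CPM after bleomycin, with every treated library above every control and a rise of 1.79-fold (log2 0.84, SE 0.17, edgeR adjusted p = 0.0136). The EXPA20 call was lost when Col-0 control 2 was left out (adjusted p = 0.0809) and when Col-0 bleomycin 1 was (0.0634). The EXPA9 call was lost without Col-0 control 1, 2 or 3 (adjusted p = 0.0916, 0.123 and 0.144), Col-0 bleomycin 2 or 3 (0.142 and 0.0888), triple mutant control 1, 2 or 3 (0.063, 0.0673 and 0.0552) or triple mutant bleomycin 3 (0.0555). Without Col-0 control 2 the expansin count fell to 2, EXPA3 and EXPA14. EXPA14 and EXPA9 missed the threshold when only the 6 Col-0 libraries were fitted (adjusted p = 0.0517 and 0.0842).

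The root hair expansins gave values in the same range without passing the test. EXPA7 (AT1G12560) was at 96.5, 69.0 and 66.8 CPM in Col-0 control and at 126, 101 and 129 CPM after bleomycin (log2 0.62, SE 0.26, edgeR adjusted p = 0.165). EXPA18 (AT1G62980) was at 56.2, 43.7 and 45.2 CPM in control and at 81.0, 83.2 and 72.8 CPM after bleomycin (log2 0.71, SE 0.25, edgeR adjusted p = 0.101). In both genes each treated library lay above each control library. The 9 root hair markers summed to 445.4 to 629.1 CPM in Col-0 control and 876.7 to 936.5 CPM after bleomycin, and none was at 0 in any library. Of the 9, 3 were called, all higher, beside 4.29% of all genes tested: LRX1, an extensin-like wall protein, and the peroxidases PRX44 and PRX73. The part of these cells in the expansin values was not tested. EXPA17 differed less than its replicates did, with Col-0 control at 180, 88.3 and 75.3 CPM and bleomycin at 152, 97.4 and 176 CPM (log2 0.32, SE 0.32, edgeR adjusted p = 0.601).

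The deposited tables divide the EXPA14 level among 3 transcripts, AT5G56320.1, AT5G56320.2 and AT5G56320.3. Transcript AT5G56320.3 was at 23.8, 15.8 and 19.1 TPM in Col-0 control and 58.4, 24.8 and 80.2 TPM after bleomycin, and AT5G56320.1 at 38.7, 66.6 and 75.1 TPM and 66.4, 139 and 111 TPM. Col-0 bleomycin 2 was thus the highest of its group for AT5G56320.1 and the lowest for AT5G56320.3. How the quantifier divides reads among transcripts of one locus is an estimate, and only the summed values were tested.

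Among XTH genes, bleomycin changed 5 of the 24 tested in Col-0. XTH14, XTH19, XTH28 and XTH31 rose and XTH9 fell. The median log2 fold change over the XTH genes tested was 0.58, with 21 of 24 above 0. The 5 called genes are 20.8% of the XTH genes tested, beside the 6.75% of all genes tested given above. In 13 genes each treated library exceeded each control library (15.5% of all genes), and in 2, XTH9 and XTH21, each was below (15% of all genes). XTH26 and XTH32, which passed the filter only through bleomycin libraries, are in the median, among the 21 above 0 and among the 13.

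XTH28 (AT1G14720), a gene with a known part in stamen filament growth, gave the clearest separation of either family. Its level was 10.2, 9.89 and 9.48 CPM in Col-0 control and 39.3, 43.0 and 31.9 CPM after bleomycin. The replicates were close together and the groups far apart, a 3.87-fold rise (log2 1.95, SE 0.15, edgeR adjusted p = 1.2e-05). XTH31 (AT3G44990), an enzyme with xyloglucan hydrolase activity, was at 2.50, 2.02 and 1.13 CPM in control and at 10.3, 11.9 and 3.86 CPM after bleomycin. Col-0 bleomycin 3 was the lowest treated library but still above the controls, and the rise was 4.6-fold (log2 2.20, SE 0.55, edgeR adjusted p = 0.0327).

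XTH14 (AT4G25820), an enzyme known from the root elongation zone and root hairs, was at 75.7, 54.6 and 54.1 CPM in control and at 148, 151 and 120 CPM after bleomycin. The groups were well apart, a rise of 2.28-fold (log2 1.19, SE 0.29, edgeR adjusted p = 0.0324). XTH19 (AT4G30290), which acts with XTH20 in the reunion of cut stems, was at 91.4, 91.3 and 100 CPM in control and at 120, 157 and 156 CPM after bleomycin, again with no overlap (1.53-fold, log2 0.62, SE 0.15, edgeR adjusted p = 0.0299). XTH20 (AT5G48070) was near the lower end of the tested genes, at 1.93, 0.492 and 1.43 CPM in control and 1.93, 0.995 and 2.63 CPM after bleomycin, with overlapping groups (log2 0.54, SE 0.75, edgeR adjusted p = 0.72). XTH9 (AT4G03210), the gene that fell, was at 21.0, 20.9 and 32.0 CPM in control and at 9.68, 9.17 and 14.3 CPM after bleomycin (log2 −1.15, SE 0.26, edgeR adjusted p = 0.0234).

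These XTH calls, apart from XTH28, depended on single libraries, and those of XTH9, XTH19 and XTH31 also on the method of testing. Without Col-0 control 2 or 3, or Col-0 bleomycin 2, XTH28 was the 1 XTH gene called, and without Col-0 bleomycin 1 XTH28 and XTH19 were called. The adjusted p of XTH14 in those 4 refits was 0.144, 0.137, 0.0737 and 0.0908, in the order given, that of XTH31 0.126, 0.14, 0.0864 and 0.0935, and that of XTH9 0.0537, 0.113, 0.0724 and 0.0839. XTH19 had 0.132, 0.0842 and 0.0761 in the first 3, and 0.0782 without Col-0 bleomycin 3. Without Col-0 control 1 the count rose to 8, adding XTH18, XTH23 and XTH24. That library had the highest summed XTH level of its group, 1313 CPM, beside 1051 and 1132 CPM, and the highest endodermis marker sum, 666.8 CPM, beside 268.4 and 329.5 CPM.

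The most abundant XTH genes did not pass in Col-0. XTH8 was at 151, 166 and 162 CPM in control and 192, 254 and 193 CPM after bleomycin, with no overlap (log2 0.42, SE 0.13, edgeR adjusted p = 0.0645). XTH18 had a log2 value of 0.70 (SE 0.20, edgeR adjusted p = 0.0544) and XTH4 of 0.22 (SE 0.21, edgeR adjusted p = 0.581). XTH22 (AT5G57560), known as TCH4 for its induction by touch, was at 31.2, 31.9 and 28.7 CPM in control and at 35.3, 108 and 55.0 CPM after bleomycin (log2 1.11, SE 0.39, edgeR adjusted p = 0.101). XTH17, XTH18 and XTH19 share 5.54% to 9.71% of their exonic 31-base words with other listed genes, the most of any, so reads between them are less certain than for the rest.

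**Figure D2:**
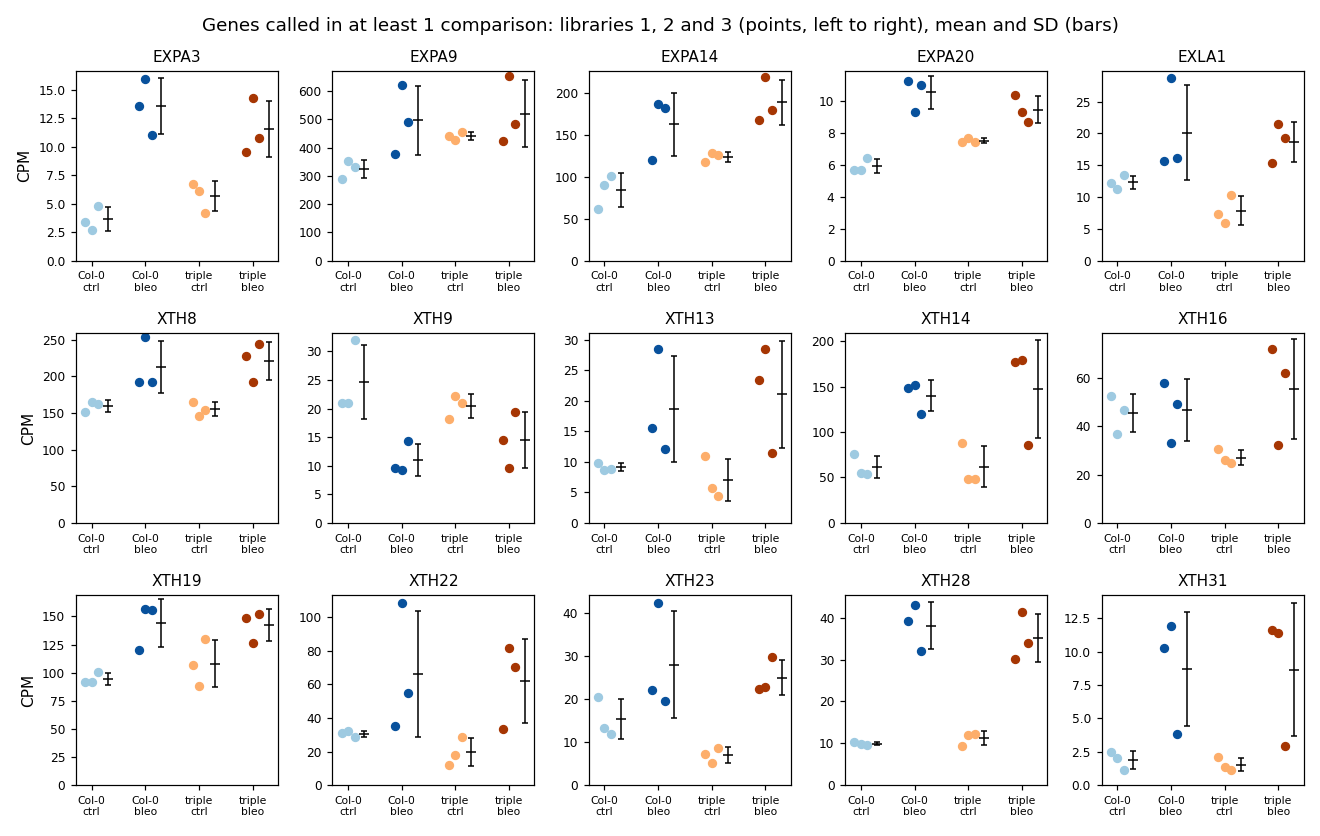
CPM in each library for the 15 genes called in at least 1 comparison. Points are libraries 1, 2 and 3 from left to right in each group, and bars show the mean and SD (n = 3) on axes that start at 0. XTH28 separates from 9.24 to 12.3 CPM in the 6 control libraries to 30.1 to 43.0 CPM in the 6 bleomycin libraries, while XTH31 has 1 lower library in each bleomycin group.

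In the triple mutant, bleomycin raised 2 of the 23 expansins tested, EXPA3 and EXLA1, and 8 of the 24 XTH genes, and lowered none. The XTH genes were XTH8, XTH13, XTH14, XTH16, XTH22, XTH23, XTH28 and XTH31. Of all genes tested, 8.01% were called, 4.2% higher and 3.81% lower. The 2 expansins are 8.7% of those tested, near the 8.01% called among all genes, and the 8 XTH genes are 33.3%. Median log2 fold changes were 0.24 for the expansins and 0.68 for the XTH genes, beside 0.03 over all genes tested. Treated libraries were all above the control libraries in 6 expansins and 12 XTH genes (16% of all genes), and all below in 1 gene, XTH21 (13.5% of all genes). XTH26 and XTH32, which passed the filter only through bleomycin libraries, are among the 12 and in the XTH median. EXPA5, which passed in the same way, is in the expansin median.

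EXPA3 was at 6.73, 6.15 and 4.17 CPM in triple mutant control and at 9.57, 14.3 and 10.8 CPM after bleomycin. The groups did not overlap, and the rise was 2.02-fold (log2 1.01, SE 0.26, edgeR adjusted p = 0.0318). EXLA1 (AT3G45970), an expansin-like protein with no wall-loosening activity shown so far, was at 7.34, 5.86 and 10.4 CPM in control and at 15.3, 21.5 and 19.2 CPM after bleomycin, a rise of 2.37-fold (log2 1.24, SE 0.25, edgeR adjusted p = 0.0121). EXLA1 and its chromosomal neighbour EXLA3 share 41 of their 31-base words, and EXLA3 was not called (log2 1.54, SE 0.67, edgeR adjusted p = 0.175). EXLA1 was lost without triple mutant control 2 or triple mutant bleomycin 2 (adjusted p = 0.0531 and 0.0507). EXPA3 was lost without triple mutant control 2 or 3 (0.0877 and 0.0975) or triple mutant bleomycin 1, 2 or 3 (0.0657, 0.121 and 0.0502), so no expansin was called without triple mutant control 2 or without triple mutant bleomycin 2.

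The remaining expansins named above did not pass in the triple mutant. EXPA14 was at 118, 128 and 126 CPM in control and at 168, 219 and 180 CPM after bleomycin, with no overlap (log2 0.61, SE 0.18, edgeR adjusted p = 0.0606). EXPA9 was at 442, 428 and 457 CPM in control and 424, 654 and 484 CPM after bleomycin, with triple mutant bleomycin 1 below each control (log2 0.23, SE 0.17, edgeR adjusted p = 0.429). EXPA20 gave a log2 value of 0.33 (SE 0.17, edgeR adjusted p = 0.247), EXPA17 of 0.24 (SE 0.32, adjusted p = 0.685), EXPA7 of 0.29 (SE 0.26, adjusted p = 0.52) and EXPA18 of 0.59 (SE 0.25, adjusted p = 0.162). For EXPA7, triple mutant bleomycin 3 was at 76.0 CPM, within the control range of 70.1 to 125 CPM, while the other treated libraries were at 132 and 124 CPM.

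XTH28 again gave the smallest adjusted p, at 9.24, 12.1 and 12.3 CPM in control and 30.1, 41.5 and 34.0 CPM after bleomycin, a clear separation (3.14-fold, log2 1.65, SE 0.15, edgeR adjusted p = 5.9e-05). XTH23 (AT4G25810), known as XTR6, was at 7.20, 5.10 and 8.73 CPM in control and at 22.5, 22.9 and 29.8 CPM after bleomycin. The groups were far apart, a 3.56-fold rise (log2 1.83, SE 0.30, edgeR adjusted p = 0.00504). XTH22 was at 12.1, 18.0 and 28.5 CPM in control and at 33.7, 81.4 and 70.7 CPM after bleomycin, with triple mutant bleomycin 1 not far above triple mutant control 3 (3.16-fold, log2 1.66, SE 0.39, edgeR adjusted p = 0.0239).

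XTH31 was at 2.07, 1.37 and 1.14 CPM in control and at 11.7, 11.4 and 2.92 CPM after bleomycin (5.67-fold, log2 2.50, SE 0.56, edgeR adjusted p = 0.0186). XTH13 (AT5G57540), a root XTH, was at 10.9, 5.73 and 4.33 CPM in control and at 23.4, 28.4 and 11.4 CPM after bleomycin (2.99-fold, log2 1.58, SE 0.40, edgeR adjusted p = 0.0314). XTH14 was at 87.9, 48.7 and 48.7 CPM in control and at 177, 180 and 85.7 CPM after bleomycin (2.38-fold, log2 1.25, SE 0.30, edgeR adjusted p = 0.0237). In these 3 genes triple mutant bleomycin 3 was the lowest treated library, and for XTH14 it fell below triple mutant control 1, so those groups overlapped. The same library had 643.7 CPM of summed root hair markers, beside 1077 and 1094 CPM in the other treated triple mutant libraries and 418.8 to 690.7 CPM in triple mutant control. Of the 9 root hair markers, 4 were called higher in the triple mutant, beside 4.2% of all genes tested. They were LRX1, PRX44, PRX73 and the NADPH oxidase gene RHD2, and their part in the XTH values was not tested.

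XTH16 (AT3G23730) was at 30.6, 25.9 and 24.6 CPM in control and at 72.1, 32.4 and 61.9 CPM after bleomycin, with triple mutant bleomycin 2 close to the controls (2.05-fold, log2 1.04, SE 0.28, edgeR adjusted p = 0.0413). XTH8 was at 165, 146 and 154 CPM in control and at 227, 193 and 244 CPM after bleomycin, with no overlap (1.42-fold, log2 0.51, SE 0.13, edgeR adjusted p = 0.0294). XTH19 (log2 0.40, SE 0.15), XTH18 (log2 0.67, SE 0.20), XTH4 (log2 0.48, SE 0.21), XTH20 (log2 0.31, SE 0.76) and XTH9 (log2 −0.50, SE 0.26) had edgeR adjusted p of 0.122, 0.0588, 0.182, 0.837 and 0.253.

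The 8 XTH calls became 2, XTH28 and XTH23, without triple mutant control 2, and 3, with XTH22 added, without triple mutant bleomycin 1. Without triple mutant control 3 they were XTH18, XTH22, XTH23 and XTH28, and without triple mutant bleomycin 2 they were XTH8, XTH16, XTH23 and XTH28. In those 4 refits, in the same order, XTH31 had an adjusted p of 0.0754, 0.0746, 0.0694 and 0.0655, XTH13 of 0.119, 0.1, 0.103 and 0.114, and XTH14 of 0.1, 0.0948, 0.0885 and 0.0875. XTH8 had 0.117, 0.113 and 0.086 in the first 3 and 0.0806 without triple mutant bleomycin 3. XTH22 had 0.0898 without triple mutant control 2, 0.0877 without triple mutant bleomycin 2, 0.0701 without triple mutant control 1 and 0.0518 without triple mutant bleomycin 3. XTH16 was lost without Col-0 control 2 or 3 (0.0529 and 0.0562), Col-0 bleomycin 3 (0.0562), triple mutant control 1, 2 or 3 (0.0592, 0.13 and 0.124) and triple mutant bleomycin 1 or 3 (0.171 and 0.0902).

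Some genes outside the naming rule are given because of their size, chosen after their values were seen. XTH26 (AT4G28850), an enzyme of roots and root hairs, was at 0.245, 0.328 and 0 CPM in Col-0 control and 0.768, 5.34 and 2.23 CPM after bleomycin, and at 0.221, 0.368 and 0 CPM in triple mutant control and 2.27, 8.21 and 1.08 CPM after bleomycin. XTH26 passed the filter only through its bleomycin libraries, so its separation in both genotypes is given as a description, and the log2 values of 3.83 (SE 1.22) and 4.27 (SE 1.24) missed the threshold (edgeR adjusted p = 0.0766 and 0.0518). XTH32 (AT2G36870), like XTH31 a member of the hydrolase-related group, was at most 0.193 CPM in the 6 control libraries and 0.570 to 2.51 CPM in the 6 bleomycin libraries (log2 2.99 and 4.26, SE 1.24 and 1.32, edgeR adjusted p = 0.161 and 0.0662), and the same holds for it. XTH21 (AT2G18800), which acts in primary root growth, went the other way, with log2 values of −0.66 in Col-0 and −0.77 in the triple mutant (SE 0.23 in each, edgeR adjusted p = 0.101 and 0.0589), and each treated library was below each control library.

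The bleomycin responses of the 2 genotypes come from separate libraries and were set side by side. Same-numbered treated libraries of the 2 genotypes deviated together from their group means (correlations of 0.47, 0.24 and 0.28), so the 2 sets of responses are not independent. Across the 24 XTH genes tested, the log2 fold changes in Col-0 and in the triple mutant had a Pearson r of 0.95, and across the 23 expansins r was 0.54, beside 0.62 over all 21561 genes. Without XTH26 and XTH32, left out after their values were seen because they passed the filter only through bleomycin libraries, r over the other 22 XTH genes was 0.89, and without EXPA5 it was 0.56 over 22 expansins. Genes are not independent replicates, so these values are a description of the lists. Values were above 0 in both genotypes for 21 of 24 XTH genes and 17 of 23 expansins (40.5% of all genes tested). Opposite signs were held by 5 expansins but no XTH gene. Without XTH26, XTH32 and EXPA5, which the filter admitted only through bleomycin libraries, the counts above 0 in both were 19 of 22 XTH genes and 16 of 22 expansins.

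The test of the difference between the genotypes' responses, the genotype by bleomycin interaction, called no expansin, no XTH gene and no gene of the 21561 (0%). At an unadjusted p under 0.05 stood 1 expansin and 2 XTH genes, beside 1.75% of all genes tested, and DESeq2 and limma called none of these families either. EXPA3 had an interaction of −0.88 on the log2 scale (SE 0.36, unadjusted p = 0.0309 in edgeR's test across all genes), from a log2 response of 1.89 in Col-0 and 1.01 in the triple mutant. XTH16 had 0.98 (SE 0.40, unadjusted p = 0.0274 in edgeR), from 0.06 and 1.04, and XTH23 had 0.97 (SE 0.42, unadjusted p = 0.0377 in edgeR), from 0.87 and 1.83. For XTH28 the interaction was −0.30 (SE 0.21), for EXPA14 −0.35 (SE 0.26), for EXPA9 −0.39 (SE 0.24), for XTH14 0.06 (SE 0.41) and for XTH31 0.30 (SE 0.75). A call in 1 genotype and none in the other is therefore not a shown difference between them.

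**Figure D3:**
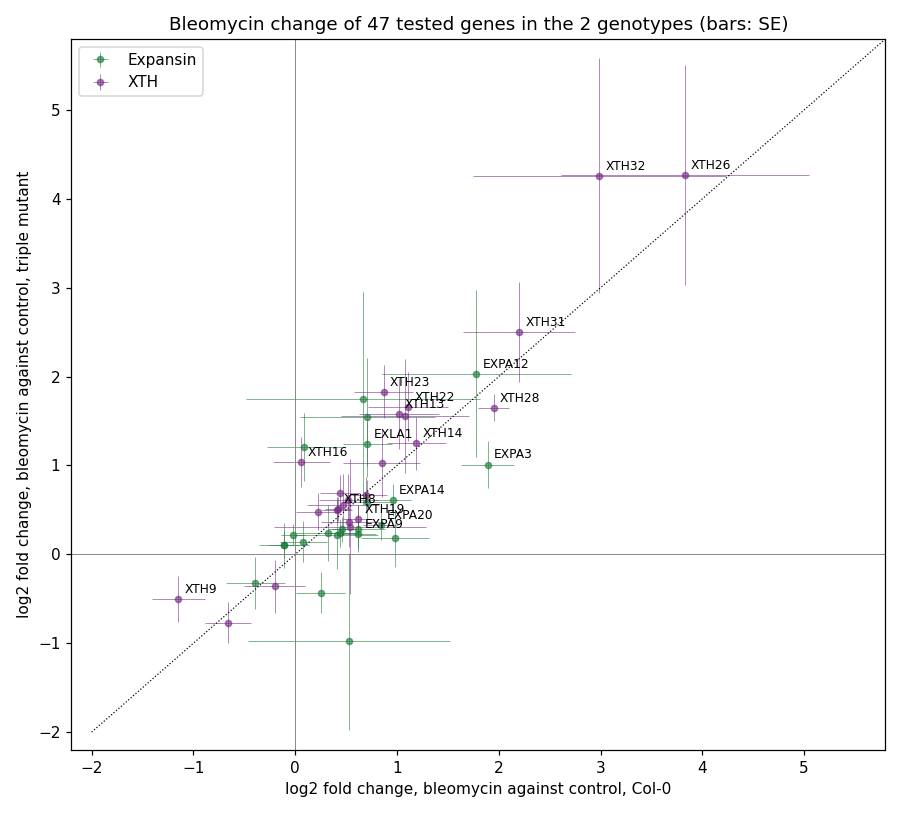
Log2 fold change after bleomycin in Col-0 (x axis) and in the triple mutant (y axis) for the 47 genes tested, expansins in green and XTH genes in purple, with bars for SE and a dotted line of equal change. XTH28 and XTH31 lie near the line at 1.95 and 1.65 and at 2.20 and 2.50, and XTH26 and XTH32 are far out with wide errors.

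On control medium no expansin and no XTH gene was called between the triple mutant and Col-0 in edgeR, nor by DESeq2 or limma, and 0.0278% of all genes tested were. At an unadjusted p under 0.05 stood 9 of the 23 expansins and 2 of the 24 XTH genes, beside 4.8% of all genes tested. Of these expansins, EXPA1, EXPA3, EXPA8, EXPA9, EXPA11, EXPA14 and EXPA20 had higher values in the triple mutant and EXPA6 and EXLA1 lower ones. The XTH genes, XTH16 and XTH23, had lower values. Every triple mutant library was above every Col-0 library in EXPA1, EXPA8, EXPA9, EXPA14 and EXPA20 (3.66% of all genes), and below in EXLA1, EXLA3, XTH16, XTH22 and XTH23 (7.94% of all genes).

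EXPA9 was at 288, 353 and 331 CPM in Col-0 control and 442, 428 and 457 CPM in triple mutant control (log2 0.48, SE 0.17, edgeR unadjusted p = 0.015, adjusted p = 0.96). EXPA14 was at 61.5, 89.8 and 101 CPM and at 118, 128 and 126 CPM (log2 0.58, SE 0.18, edgeR unadjusted p = 0.00726, adjusted p = 0.96). The separation was narrow for EXPA14 and wider for EXPA9, and neither passed the adjustment. EXPA8 (AT2G40610), singled out after its values were seen for the smallest unadjusted p of the families here, was at 12.1, 11.6 and 8.91 CPM in Col-0 and 25.9, 18.2 and 18.3 CPM in the triple mutant (log2 0.96, SE 0.24, edgeR unadjusted p = 0.00131, adjusted p = 0.804). EXPA1 (AT1G69530), chosen likewise, was at 17.0, 22.2 and 19.7 CPM and at 52.5, 40.2 and 35.8 CPM (log2 1.16, SE 0.33, edgeR unadjusted p = 0.00386, adjusted p = 0.96).

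XTH23 was at 20.6, 13.4 and 11.9 CPM in Col-0 control and 7.20, 5.10 and 8.73 CPM in triple mutant control (log2 −1.10, SE 0.30, edgeR unadjusted p = 0.00286, adjusted p = 0.96). XTH16 was at 52.5, 36.9 and 46.8 CPM and at 30.6, 25.9 and 24.6 CPM (log2 −0.72, SE 0.28, edgeR unadjusted p = 0.0239, adjusted p = 0.96). The same control libraries enter the bleomycin comparisons, so a low value in triple mutant control raises the fold change after bleomycin in that genotype. Summed over the family, the expansins reached 1092 to 1130 CPM in Col-0 control and 1289 to 1461 CPM in triple mutant control.

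After bleomycin the triple mutant and Col-0 did not differ by the test in any of the 47 genes, and 0.0278% of all genes tested were called. No member had an unadjusted p under 0.05 either, beside 1.05% of all genes tested, and DESeq2 and limma called none. Libraries did not overlap in EXPA6, higher in the triple mutant (1.86% of all genes), and in EXLB1, lower (3.09% of all genes). EXPA9 (log2 0.08, SE 0.17), EXPA14 (log2 0.23, SE 0.18), XTH23 (log2 −0.14, SE 0.29) and XTH28 (log2 −0.10, SE 0.15) all lay within 2 SE of 0.

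**Figure D4:**
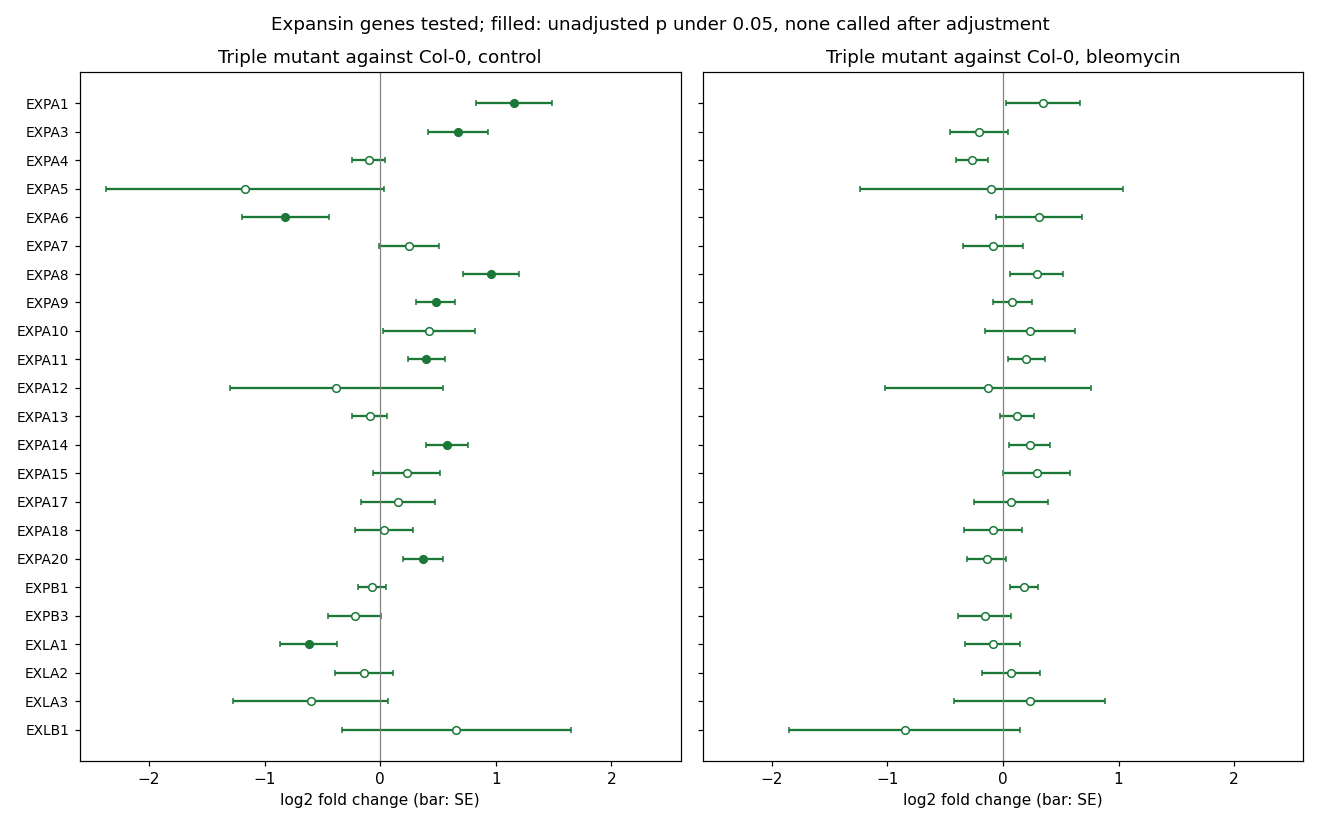
Log2 fold change of the triple mutant against Col-0 for the 23 expansins tested, on control medium (left) and after bleomycin (right), with bars for SE. Filled points have an unadjusted p under 0.05, which 9 genes reach on control medium and none after bleomycin, and no gene passed the adjustment.

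Family sums of CPM separated the treated from the control libraries within each genotype. Expansins summed to 1302, 1655 and 1626 CPM in Col-0 bleomycin libraries 1 to 3, above all Col-0 controls. In the triple mutant they summed to 1461, 1301 and 1289 CPM in control and 1495, 1833 and 1526 CPM after bleomycin, a narrow gap. Col-0 bleomycin 1 lay below triple mutant control 1. XTH genes summed to 1313, 1051 and 1132 CPM in Col-0 control and 1733, 1677 and 1612 CPM after bleomycin, and to 1126, 906.1 and 1090 CPM in triple mutant control and 1807, 1477 and 1585 CPM after bleomycin. Every treated library was above every control library of its genotype in each family.

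**Figure D5:**
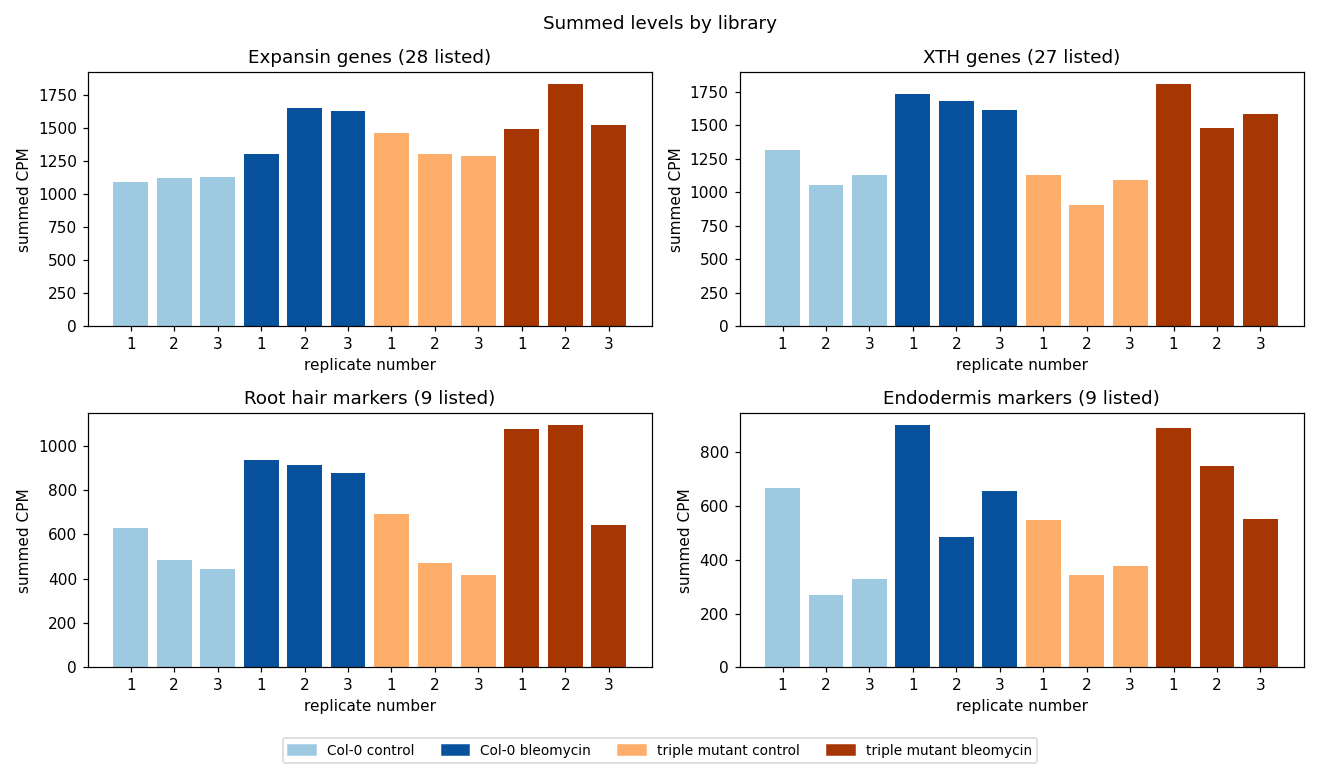
Summed CPM in each of the 12 libraries for the 28 expansins, the 27 XTH genes, and 9 markers each of root hairs and endodermis, with bars coloured by group on axes that start at 0. XTH sums are 906.1 to 1313 CPM in control and 1477 to 1807 CPM after bleomycin, and root hair sums reach 876.7 CPM or more after bleomycin except in triple mutant bleomycin 3 at 643.7 CPM.

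Other genes of the same wall were taken from 3 lists. Of 10 genes for cellulose synthesis in the primary wall, bleomycin raised 2 in Col-0 and 6 in the triple mutant, with median log2 fold changes of 0.38 and 0.53, where 4.29% and 4.2% of all genes tested were called higher. CESA5, a catalytic subunit, rose in both, from 50.5 ± 1.15 to 84.5 ± 6.55 CPM (SD, n = 3) in Col-0 and from 42.1 ± 3.82 to 78.0 ± 11.9 CPM in the triple mutant (log2 0.75 and 0.89, SE 0.12 in each, edgeR adjusted p = 0.00369 and 0.0014). So did CC1, a companion protein of the synthase complex (log2 0.41 and 0.42, SE 0.11 in each, edgeR adjusted p = 0.0459 and 0.0396). CESA1, CESA2, CESA3 and CESA6, further catalytic subunits, rose in the triple mutant, by 0.51 to 0.64 on the log2 scale.

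Of 17 genes for xyloglucan synthesis and trimming, which make and trim the substrate of XTH enzymes, 1 rose in Col-0 and 2 in the triple mutant, with medians of 0.12 and 0.22. These are 5.88% and 11.8% of the list, near the 6.75% and 8.01% called among all genes tested. AXY8, the fucosidase that trims xyloglucan side chains, rose in both, from 118 ± 4.08 to 169 ± 13.4 CPM (SD, n = 3) in Col-0 and from 125 ± 2.45 to 189 ± 8.35 CPM in the triple mutant (log2 0.52 and 0.59, SE 0.09 in each, edgeR adjusted p = 0.00702 and 0.00412). CSLC4, which makes the glucan backbone, rose in the triple mutant (log2 0.72, SE 0.14, edgeR adjusted p = 0.0104). Of 9 plasma membrane proton pump genes tested, which acidify the wall in which expansins act, AHA7 rose in Col-0, from 33.4 ± 8.61 to 71.6 ± 8.28 CPM (SD, n = 3, edgeR adjusted p = 0.0226), and none was called in the triple mutant. An unadjusted p under 0.05, in either direction, was reached by 5 of the 9 in each genotype, beside 24.3% and 25.1% of all genes tested. Of the 9, 6 had values above 0 and 3 below in each genotype. No gene of these lists was called between the genotypes or in the interaction.

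Endodermis markers summed to 268.4 to 666.8 CPM in Col-0 control and 483 to 900 CPM after bleomycin, and to 342.1 to 546.6 and 551.6 to 887.1 CPM in the triple mutant. Of the 9 endodermis genes 8 had values above 0 in each genotype, with median log2 fold changes of 0.69 and 0.70. EdgeR called none of them, with 4 at an unadjusted p under 0.05 in each genotype, beside 24.3% and 25.1% of all genes tested. Of 10 xylem markers, 9 had values above 0 in Col-0 (median log2 fold change 0.75) and 7 in the triple mutant (median 0.68). The 1 xylem gene called was ACL5, a thermospermine synthase gene, which fell in both genotypes (log2 −1.20 and −1.25, SE 0.17 in each, edgeR adjusted p = 0.0017 and 0.00147). Of all genes tested, 2.46% and 3.81% were called lower in the 2 genotypes.

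Of the 6 root cap markers, 3 had values above 0 and 3 below in each genotype, with medians of 0.15 and 0.10. RCPG and BRN2 rose in Col-0 (log2 0.79 and 0.60, edgeR adjusted p = 0.0418 and 0.0409), where 4.29% of all genes tested were called higher. None was called in the triple mutant. FEZ, a regulator of root cap stem cell divisions named here after its values were seen, was at 5.95, 6.99 and 6.99 CPM in Col-0 control. After bleomycin it was at 1.31, 2.20 and 3.94 CPM, lower without overlap like 15% of all genes, and was not called (log2 −1.41, SE 0.52, edgeR adjusted p = 0.116). Of 8 phloem markers 7 had values above 0 in each genotype (medians of 0.52 and 0.44), and OPS rose in Col-0 (log2 0.65, edgeR adjusted p = 0.0426). Of 7 stem cell niche markers 5 had values below 0 in Col-0 and 6 in the triple mutant (medians of −0.14 and −0.33). PLT3 fell in the triple mutant (log2 −0.59, edgeR adjusted p = 0.0371), where 3.81% of all genes tested were called lower. The part of these marker genes in the expansin and XTH values was not tested.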

How the data were processed

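RNA-seq of 12 root tip libraries was analysed, 3 biological replicates in each of 4 groups. The kits were QIAGEN RNeasy Plant Mini for RNA and NEBNext Ultra for libraries, with no mention of strand marking, per the labels' protocols. Salmon 0.9.1, which quantifies transcripts, and CASAVA are listed in the submitters' processing notes without their roles. The Salmon options, the genome build and the annotation were not given in the sources used here. Each table the authors deposited lists 88971 transcripts of 1 library with an estimated count of reads and a TPM value, per the file headers. These estimated counts of the authors can be fractions of a read. TPM, as the authors deposited it, is corrected for transcript length and scaled to a common total. Lengths and effective lengths in bases also stand in the tables, per the file headers.

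The 30576 transcripts of transposable elements were left out (0.0666% to 0.0915% of reads), and estimated counts were summed per locus and rounded. The members, lists, naming rule and tests were chosen with earlier results of these data known. The named genes are the members called in at least 1 comparison, the 3 of each family with the highest mean TPM, EXPA7, EXPA18, XTH19, XTH20 and XTH22, and the called genes of 3 wall lists. Tests used edgeR 4.0.16 in R 4.3.3 (quasi-likelihood F test, TMM scaling with factors of 0.963 to 1.035, filterByExpr by group, group as the only term, all 12 libraries in 1 fit, 21561 genes, Benjamini-Hochberg adjustment, no fold threshold). An SE is the log2 fold change divided by the root of its F value. The common biological coefficient of variation was 0.3, and the code was tested on simulated data. Alternatives were DESeq2 1.42.0 (size factors, Wald test), limma 3.58.1 (voom, or log2 TPM with a pseudocount of 0.5 or 0.1), other filters, a replicate block, fits of only the groups compared, and leaving out libraries. CPM is read counts scaled to the reads in the loci kept. No 2 replicates of a group agreed within sampling noise (chi-square per degree of freedom of 18.4 to 99.6). The design text calls the replicates biological, and a p-value measures only the spread between these samples. The read counts of a single library give no measure of the spread between replicates.

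Same-numbered libraries of Col-0 and the triple mutant after bleomycin deviated together from their group means (correlations of 0.47, 0.24 and 0.28), so their numbers pair them by the data, with no label that says so. In the other comparisons at least 1 pair was at 0.1 or below. Promoters came from RefSeq TAIR10.1, and all 55 genes were matched. Of 78 transcripts of the listed genes, 67 (85.9%) had the same length there as in the deposited tables.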

Additional observations from a re-analysis of the deposited data

How the results depend on the processing

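With 23 alternatives, 1 of them (Col-0 control 1 and triple mutant control 3 both left out) chosen after seeing the data, no called gene reversed its direction. EXPA3 in Col-0, XTH23 in the triple mutant and XTH28 in both genotypes were called in each of the 23. Main counts of called genes were 4 expansins and 5 XTH genes in Col-0, and 2 and 8 in the triple mutant. The DESeq2 Wald test called 7 and 10 in Col-0 and 4 and 14 in the triple mutant. The limma test on log2(TPM + 0.5) called 3 XTH genes in Col-0 and that on log2(TPM + 0.1) called 2. In Col-0 both lost XTH9 (limma adjusted p = 0.0769 and 0.0824) and XTH19 (0.0694 and 0.0734), and the second also XTH31 (0.0529). In the triple mutant both lost XTH16 (0.113 and 0.117) and XTH8 (0.0513 and 0.0528). Limma voom lost XTH31 in Col-0 (adjusted p = 0.108), and XTH31 (0.119) and XTH16 (0.0666) in the triple mutant. Fitting only the groups compared left 4 XTH genes in the triple mutant. With both libraries left out, 9 XTH genes were called in Col-0, and 1 expansin and 5 XTH genes in the triple mutant. The cause of these changes was not tested. Leaving out 1 library at a time gave 2 to 4 expansins and 1 to 8 XTH genes in Col-0, 0 to 3 and 2 to 10 in the triple mutant, and 0 to 0 in the genotype and interaction comparisons. Some uncalled genes changed sign between alternatives, among them EXPB1, EXPA6 and XTH16 in Col-0. TPM scaling moved the median of all genes to 0.11 or 0.12 after bleomycin in the triple mutant and to −0.12 or −0.13 for genotype on control medium.

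With the replicate number as a block, 8 expansins and 13 XTH genes were called in Col-0 and 4 and 18 in the triple mutant, and 0 in every genotype or interaction comparison, where the block changed no call. Same-numbered control and bleomycin libraries correlated at 0.39, 0.13 and 0.07 in Col-0. Libraries of different numbers there ranged from −0.26 to 0.14. In the triple mutant the values were 0.17, 0.03 and 0.09, beside −0.14 to 0 for different numbers. Those of the genotypes on control medium were 0.15, 0.06 and 0.12, beside −0.14 to 0. The same-number values were weak but all above 0, and no label says whether a number marks a pairing. The main counts come from the fit without the block. With 3 libraries a group, the spread of genes under a few CPM, such as XTH20, XTH26 and XTH32, limits what can be called.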
